A study of Mus musculus with 6 samples.

Results

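The 10 genes described here encode the protein core of telomerase and the proteins that cover and replicate chromosome ends: *Tert*, *Dkc1*, *Terf1*, *Terf2*, *Terf2ip*, *Tinf2*, *Pot1a*, *Pot1b*, *Acd* and *Rtel1*. They were taken by name from the 22380 gene identifiers listed for each RNA-Seq library, and all 10 had an identifier there. RNA was measured in 6 mouse embryonic stem cell (mESC) lines, 3 *Ctrl* and 3 *Tet iTKO*, each derived from a different embryo. The *Ctrl* lines carried 1 copy of CreERT2, a Cre recombinase switched on by tamoxifen and driven by the human ubiquitin C promoter, and 1 copy of the Gt(ROSA)26Sor<tm1Ytchn>/J reporter, which makes H2b-Egfp after recombination. The *Tet iTKO* lines carried the same alleles and, in addition, floxed alleles of *Tet1*, *Tet2* and *Tet3* on both chromosomes. Both groups received the active tamoxifen 4-OHT at 1 µM for 2.5 days and were grown for 4 days more in 2i medium on feeder fibroblasts. At day 6.5, live cells positive for CD326, SSEA1 and GFP and negative for the feeder marker CD90.2 were sorted. The 2 groups thus shared the drug, the recombinase and the sort and differed in the floxed alleles. They also differed in descent, as the floxed mice came from stem cells of another substrain than the wild-type mice mated for *Ctrl* embryos. The part of this background was not tested.

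Telomeres are arrays of TTAGGG repeats that shorten when DNA is replicated. Telomerase adds repeats back, with TERT as its reverse transcriptase and dyskerin, the product of *Dkc1*, holding the RNA template, and shelterin is the set of proteins that sits on the repeats, hides the end from DNA damage signalling and controls the access of telomerase. Mouse embryonic stem cells express telomerase, and TET enzymes oxidise 5-methylcytosine at CpG dinucleotides, which are dense at many promoters of these genes.

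The promoters of *Tert* and of the 3 genes that passed the test below are shown so that their CpG dinucleotides can be read. TET enzymes act on these only where they are methylated. Each is the window from 250 bases before to 50 bases after the transcription start in RefSeq (GRCm38.p6), written 5′ to 3′ on the strand of the gene with every CpG in capitals. The *Tert* window is chr13:73626661-73626960 on the plus strand, the *Dkc1* window chrX:75095604-75095903 on the plus strand, the *Acd* window chr8:105701179-105701478 on the minus strand and the *Rtel1* window chr2:181319474-181319773 on the plus strand.
Tert: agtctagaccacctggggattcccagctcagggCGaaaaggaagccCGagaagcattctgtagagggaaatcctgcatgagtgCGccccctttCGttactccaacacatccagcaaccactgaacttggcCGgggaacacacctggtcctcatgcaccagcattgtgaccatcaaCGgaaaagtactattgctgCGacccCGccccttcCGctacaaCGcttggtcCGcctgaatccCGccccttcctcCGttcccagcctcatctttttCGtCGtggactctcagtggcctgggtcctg
Dkc1: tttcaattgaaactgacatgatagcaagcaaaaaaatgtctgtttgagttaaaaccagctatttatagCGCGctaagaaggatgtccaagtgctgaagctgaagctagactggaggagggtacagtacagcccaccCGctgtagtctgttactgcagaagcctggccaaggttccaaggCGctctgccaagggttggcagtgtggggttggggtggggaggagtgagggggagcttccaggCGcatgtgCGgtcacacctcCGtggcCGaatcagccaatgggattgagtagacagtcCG
Acd: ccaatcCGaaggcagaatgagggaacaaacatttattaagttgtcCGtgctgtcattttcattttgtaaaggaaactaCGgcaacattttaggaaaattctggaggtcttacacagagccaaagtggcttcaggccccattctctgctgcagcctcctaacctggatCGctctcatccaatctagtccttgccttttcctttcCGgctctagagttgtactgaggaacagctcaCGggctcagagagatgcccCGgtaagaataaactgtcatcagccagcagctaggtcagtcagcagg
Rtel1: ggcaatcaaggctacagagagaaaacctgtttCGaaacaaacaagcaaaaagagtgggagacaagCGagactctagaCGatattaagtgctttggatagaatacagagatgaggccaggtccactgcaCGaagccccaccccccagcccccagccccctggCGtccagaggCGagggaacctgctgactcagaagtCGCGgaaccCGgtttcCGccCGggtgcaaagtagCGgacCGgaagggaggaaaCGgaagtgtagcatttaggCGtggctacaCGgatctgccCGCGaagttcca

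Of the 10 genes, 9 matched a RefSeq promoter, all but *Terf1*. The windows above held 15 CpG for *Tert*, 9 for *Dkc1*, 7 for *Acd* and 18 for *Rtel1*. Over all 32851 windows the median was 7 CpG, with quartiles of 3 and 20, and the other 5 genes had between 15 and 24. The 3 genes that passed the test covered both the poorest and a rich promoter of the set in CpG. GGGCGG, the GC box bound by SP1, was found on either strand in 6 of the 9 windows, those of *Tert* (2 times), *Rtel1*, *Terf2*, *Terf2ip*, *Pot1a* and *Pot1b*, and in 35.7% of all windows. CACGTG, the E-box bound by MYC, was in none of the 9 windows and in 7.2% of all windows. The telomere repeat TTAGGG was found only in the window of *Pot1b* among the 9 and in 10.6% of all windows. These letter matches are descriptions, and DNA methylation at these windows was not analysed here.

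The libraries held between 4.21 M and 4.22 M normalized counts each in *Ctrl* and between 3.96 M and 4.00 M in *Tet iTKO* lines. Genes above 0 numbered between 13431 and 13539 in *Ctrl* and between 14024 and 14363 in *Tet iTKO* lines. An estimated 3.66 M to 5.10 M reads per library lay on genes. A normalized count is the number of reads on a gene divided by the size factor of the library. Markers of mESC summed to between 29606 and 30037 normalized counts across *Ctrl* and between 25815 and 26749 in *Tet iTKO* lines. By the test below 2 of 10 were higher and 4 lower, against 16.4% and 18.4% of all tested genes. With values corrected for the length and GC content of transcripts 1 was higher and 7 were lower, against 12.2% and 21.5%. *Epcam* (log2 change 0.45) and *Esrrb* (0.29) rose, and *Dppa5a* (-0.39) and *Zfp42* (-0.35) fell most. *Nanog* (-0.30, limma adjusted p = 0.00038) and *Pou5f1* (-0.29, limma adjusted p = 5.7e-06) fell too. With quantile normalization the call of *Pou5f1* was lost (-0.08, limma adjusted p = 0.2). The largest falls in counts were those of *Dppa5a*, from a mean of 11226 to 8573, and *Pou5f1*, from 5490 to 4489. The call of *Esrrb* was lost with the correction (-0.04, limma adjusted p = 0.63). Markers of feeder fibroblasts summed to between 1379 and 1404 in *Ctrl* and between 1016 and 1102 in *Tet iTKO* lines. The fall in this sum lay in *Vim*, which was lower by the test, with a mean of 1058 in *Ctrl* and 487 in *Tet iTKO* lines. *Col1a1*, *Col1a2* and *Col3a1* were higher. *Thy1*, the gene of CD90.2, had between 23 and 47 counts in every line and *Acta2* between 42 and 56. Neither passed (limma adjusted p = 0.69 and 0.79). The fibroblast markers *Postn*, *Lum* and *Dcn* were at 15 counts or fewer in every line. Markers of primitive endoderm summed to between 49 and 53 in *Ctrl* and between 105 and 135 in *Tet iTKO* lines. *Col4a1* and *Gata4* were higher, and *Gata6*, *Sox17* and *Foxa2* had 5 counts or fewer in every line. *Dab2* and *Pdgfra* had at most 7 and 9 counts in any line. *Sox7*, which entered the test through the *Ctrl* lines, went the other way, with 17, 24 and 7 counts against 2, 9 and 9. Its log2 change of -1.19 did not pass (limma adjusted p = 0.15) but did with quantile normalization (-1.80, limma adjusted p = 0.039). *Gata4*, with a mean of 6.33 in *Ctrl* and 20 in *Tet iTKO* lines, entered the test through the *Tet iTKO* lines, and its call was lost without *Ctrl* 1, *Tet iTKO* 1 or *Tet iTKO* 3 (highest limma adjusted p = 0.16), with quantile normalization (limma adjusted p = 0.15) and with values corrected for the length and GC content of transcripts (limma adjusted p = 0.068). The part of these marker changes in the results below was not tested, and in RNA of bulk populations fewer cells of a type and less RNA per cell cannot be told apart. Reads of the deposited *Tet* values cover the whole gene, including exons that are not deleted, so they do not check the deletion: *Tet1* had a fitted log2 change of 0.21 (limma adjusted p = 0.026), *Tet2* one of 0.14 (limma adjusted p = 0.43) and *Tet3* one of -1.67 (limma adjusted p = 0.035). *Tet3*, with a mean of 18 in *Ctrl* and 5.33 in *Tet iTKO* lines, entered the test through the *Ctrl* lines. The calls of *Tet1* and *Tet3* were lost in fits without single lines, *Tet1* without *Ctrl* 2 or *Tet iTKO* 2 (limma adjusted p = 0.084 and 0.22) and *Tet3* without *Tet iTKO* 2 or *Tet iTKO* 3 (limma adjusted p = 0.11 and 0.1).

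The comparison of *Tet iTKO* with *Ctrl* mESC asks how transcripts of telomere proteins stand shortly after the loss of TET activity. It found 2 of the 10 genes higher in *Tet iTKO* mESC, *Rtel1* and *Acd*, and 1 lower, *Dkc1*, while the other 7 did not pass the test. Differences were small, between 0.02 and 0.49 in size on the log2 scale, and none reached a change of 1, which 6.25% of all tested genes did along with passing the test. The share called among the 10 genes, 30%, stood against 34.8% of all 10524 tested genes (16.4% higher and 18.4% lower), a share near that of genes at large. Here a gene counts as changed at an adjusted p under 0.05 from limma, a linear model with shared variance, on log2(normalized count + 1), its p adjusted by Benjamini-Hochberg over all tested genes, and SE is the standard error of a log2 fold change. The median log2 fold change of the 10 genes was 0.06 and that of all tested genes 0.01. With a correction for the GC content and length of transcripts 1 of the 10 genes, *Rtel1*, was called higher and none was called lower, against 33.7% of all tested genes (12.2% higher and 21.5% lower), and with quantile normalization *Rtel1* and *Acd* were higher and none was lower, against 33.8% (17.1% higher and 16.7% lower).

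**Figure D1:**
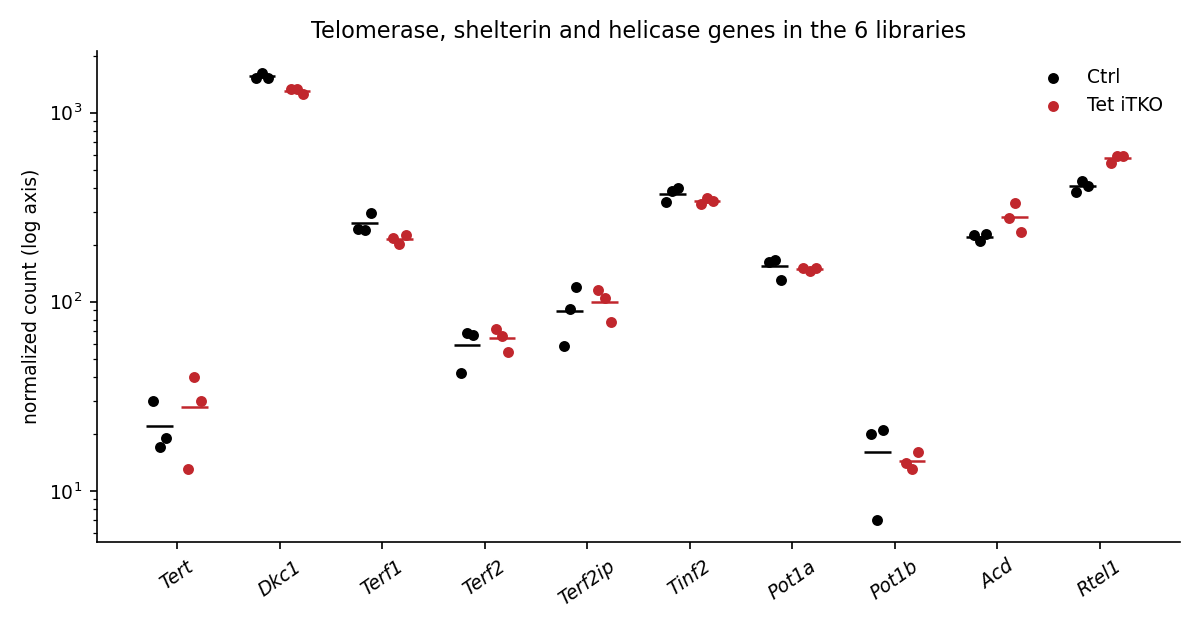
Normalized counts (log axis) of the 10 genes in each of the 3 *Ctrl* and 3 *Tet iTKO* lines, 1 point per line and a line at the group mean. The 3 *Tet iTKO* points of *Rtel1*, from 544 to 590, lie above the *Ctrl* points, from 380 to 437, while the points of *Tert* and *Pot1b* are low and mixed.

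*Rtel1* (ENSMUSG00000038685.10, chromosome 2) encodes a DNA helicase that unwinds telomeric loops and G-quadruplexes during replication. It had 380, 437 and 411 normalized counts across the 3 *Ctrl* lines and 544, 589 and 590 across the *Tet iTKO* lines. Every *Tet iTKO* line lay above every *Ctrl* line, and the mean was 409.3 ± 28.5 (SD, n = 3) for *Ctrl* but 574.3 ± 26.3 (SD, n = 3) for *Tet iTKO* mESC. The fitted log2 fold change was 0.49 (SE 0.09, 95% interval 0.31 to 0.67, limma adjusted p = 2.9e-05), a rise of 40.3% on that scale. After the GC content and length correction it was 0.51 (limma adjusted p = 1e-05). It kept its call in all 18 alternatives, with values between 0.44 and 0.57 and an adjusted p of at most 0.02 from limma. No annotated gene overlaps the exons of *Rtel1*, whose promoter carried 18 CpG.

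*Tert* (ENSMUSG00000021611.7, chromosome 13), the catalytic subunit of telomerase, was detected in every line at few reads. Its normalized counts were 30, 17 and 19 in *Ctrl* lines and 13, 40 and 30 in *Tet iTKO* lines. The lowest and the highest value both came from *Tet iTKO* lines, and the groups overlapped. Means were 22 ± 7 (SD, n = 3) for *Ctrl* and 27.7 ± 13.7 (SD, n = 3) for *Tet iTKO* mESC, a log2 change of 0.22 (SE 0.42, limma adjusted p = 0.71). The 95% interval ran from -0.62 to 1.07, so the values were compatible with a fall as well as with a rise inside these limits. The direction itself turned, to -0.06, with the GC content and length correction and with quantile normalization (limma adjusted p = 0.93 for each).

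*Dkc1* (ENSMUSG00000031403.8, chromosome X) encodes dyskerin, the pseudouridine synthase that binds the telomerase RNA and box H/ACA RNAs. The *Ctrl* lines had 1525, 1620 and 1520 normalized counts and the *Tet iTKO* lines 1332, 1331 and 1252. All 3 *Tet iTKO* values lay below the *Ctrl* values, and the mean was 1555 ± 56.3 (SD, n = 3) for *Ctrl* but 1305 ± 45.9 (SD, n = 3) for *Tet iTKO* mESC. The fitted log2 fold change was -0.25 (SE 0.06, 95% interval -0.37 to -0.13, limma adjusted p = 0.00095), and fits that left out each line in turn gave -0.27 to -0.22 and kept the call. The size depended on scaling, since it was -0.10 with the GC content and length correction (limma adjusted p = 0.2) and -0.14 with quantile normalization (limma adjusted p = 0.061). The median log2 fold change of the 340 tested genes of chromosome X was -0.08, and those of the autosomes lay between -0.06 and 0.07, while the 6 tested genes of chromosome Y had a median of -0.91. Of the Y-linked genes, *Ddx3y*, *Eif2s3y*, *Kdm5d* and *Uty* had counts in every line. *Eif2s3y*, which encodes a translation initiation factor subunit, fell by 1.00 on the log2 scale (limma adjusted p = 5.6e-09), and the log2 fold changes of *Kdm5d*, *Uty* and *Ddx3y* were -0.83, -0.37 and -0.29 (limma adjusted p = 0.11, 0.22 and 0.2). *Mpp1* shares 45 exon bases with *Dkc1* on the opposite strand and had a log2 change of -0.06 (limma adjusted p = 0.69).

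**Figure D2:**
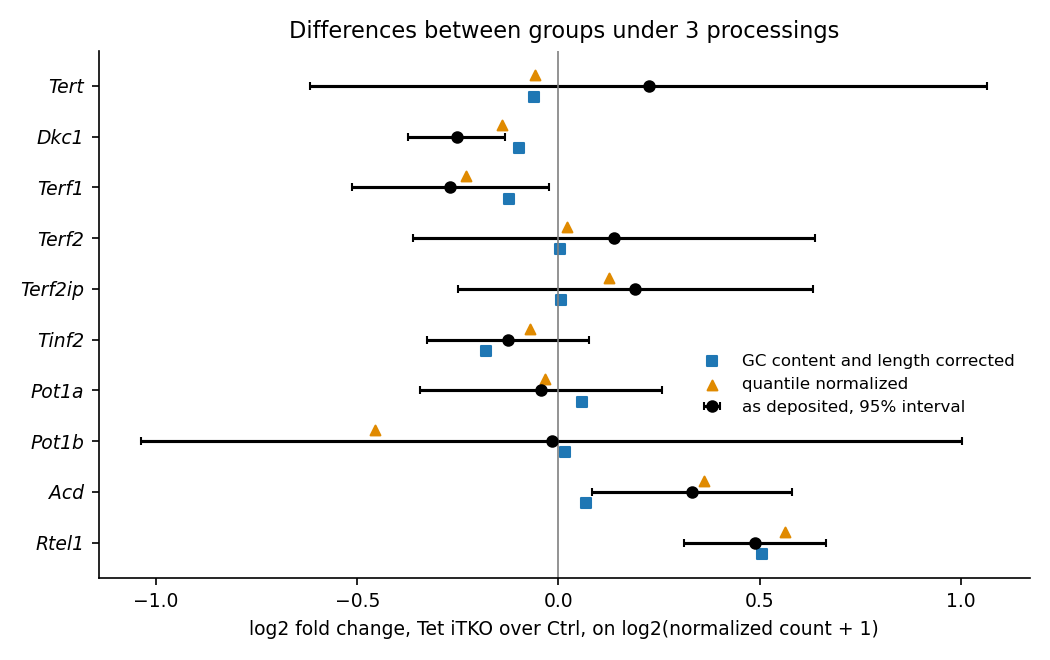
Log2 fold change, *Tet iTKO* minus *Ctrl*, of the 10 genes as deposited and with the GC content and length correction and quantile normalization. The bars are 95% intervals of the fit on the values as deposited. *Rtel1* stays between 0.49 and 0.56 under all 3, whereas *Dkc1* moves from -0.25 to -0.10 and *Acd* from 0.33 to 0.07 with the correction.

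Of the 7 shelterin genes, *Acd* alone passed the test, and *Terf1* stood apart between groups without passing. Groups that do not overlap were found for 4 of the 10 genes, *Acd* and *Rtel1* higher and *Dkc1* and *Terf1* lower, against 44.1% of all tested genes (21.2% higher and 22.9% lower).

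*Terf1* and *Terf2* encode TRF1 and TRF2, the subunits that bind double-stranded TTAGGG repeats. *Terf1* (ENSMUSG00000025925.7, chromosome 1) had 244, 240 and 295 normalized counts across *Ctrl* and 217, 202 and 225 in *Tet iTKO* lines. Each *Tet iTKO* line was below each *Ctrl* line, and the mean went from 259.7 ± 30.7 (SD, n = 3) to 214.7 ± 11.7 (SD, n = 3), but the log2 fold change of -0.27 (SE 0.12, 95% interval -0.51 to -0.02) missed the threshold after adjustment (limma adjusted p = 0.081). With the GC content and length correction it was -0.12 (limma adjusted p = 0.48).

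*Terf2* (ENSMUSG00000031921.10, chromosome 8), whose protein folds the end into a protective loop, had 42, 68 and 67 normalized counts across *Ctrl* and 72, 66 and 54 in *Tet iTKO* lines. The groups overlapped, and the log2 fold change was 0.14 (SE 0.25, 95% interval -0.36 to 0.64, limma adjusted p = 0.7). The log2 ratio of *Terf1* to *Terf2* was 2.15 ± 0.35 (SD, n = 3) for *Ctrl* and 1.74 ± 0.26 (SD, n = 3) for *Tet iTKO* mESC. This difference of -0.41 was tested by an exact two-sided permutation test (p = 0.2), which cannot go below 0.1 with 3 lines against 3.

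*Terf2ip* (ENSMUSG00000033430.9, chromosome 8) encodes RAP1, which binds TRF2. It had 58, 92 and 119 normalized counts across *Ctrl* lines and 116, 105 and 78 in *Tet iTKO* lines. The values of the 2 groups were interleaved, and the log2 fold change was 0.19 (SE 0.22, 95% interval -0.25 to 0.63, limma adjusted p = 0.54). *Gm6793*, which shares 108 exon bases with it on the opposite strand, had no counts in *Ctrl* lines and 2, 1 and 1 in *Tet iTKO* lines.

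*Tinf2* (ENSMUSG00000007589.7, chromosome 14) encodes TIN2, the hub that joins TRF1, TRF2 and TPP1. It had 336, 385 and 400 normalized counts across *Ctrl* and 327, 355 and 343 in *Tet iTKO* lines. The groups overlapped through *Ctrl* line 1, and the log2 fold change was -0.13 (SE 0.10, 95% interval -0.33 to 0.08, limma adjusted p = 0.35). Its exons share 1540 bases with *Gmpr2*, a GMP reductase gene on the opposite strand, which went from a mean of 120.3 to 87.7 (limma adjusted p = 0.056). The difference in means was -32.7 normalized counts for *Gmpr2* and -32.0 for *Tinf2*. With *Gmpr2* subtracted in each library, an alternative chosen with the data in view, *Tinf2* had a fitted log2 change of 0.0038 (limma adjusted p = 0.99). The whole count of *Gmpr2* was subtracted, so more than the reads in the shared bases may have been removed.

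*Pot1a* and *Pot1b* are the pair of mouse genes for POT1, the shelterin protein on single-stranded telomeric DNA, and their similar sequences mean that reads shared by both are not counted under unique alignment. *Pot1a* (ENSMUSG00000029676.8, chromosome 6) had 163, 167 and 131 normalized counts across *Ctrl* and 150, 145 and 150 in *Tet iTKO* lines, with a log2 change of -0.04 (SE 0.15, 95% interval -0.34 to 0.26, limma adjusted p = 0.86). *Pot1b* (ENSMUSG00000024174.8, chromosome 17) had 20, 7 and 21 normalized counts across *Ctrl* and 14, 13 and 16 in *Tet iTKO* lines. The *Ctrl* values enclosed all *Tet iTKO* values for both genes. For *Pot1b* the log2 fold change was -0.02 (SE 0.50, limma adjusted p = 0.99). Its 95% interval ran from -1.04 to 1.00, so a fall and a rise inside these limits were both compatible with the values. The log2 ratio of *Pot1a* to *Pot1b* was 3.31 ± 0.95 (SD, n = 3) for *Ctrl* and 3.29 ± 0.12 (SD, n = 3) for *Tet iTKO* mESC (exact two-sided permutation test, p = 1), and the wide *Ctrl* spread came from the 7 counts of *Pot1b* in *Ctrl* line 2.

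*Acd* (ENSMUSG00000038000.8, chromosome 8) encodes TPP1, which recruits telomerase to the end and binds POT1. The *Ctrl* lines had 225, 210 and 229 normalized counts and the *Tet iTKO* lines 278, 332 and 234. All *Tet iTKO* values were above the *Ctrl* values, but *Tet iTKO* line 3 exceeded the highest *Ctrl* line by only 5 counts. Means were 221.3 ± 10.02 (SD, n = 3) for *Ctrl* and 281.3 ± 49.1 (SD, n = 3) for *Tet iTKO* mESC, a log2 change of 0.33 (SE 0.12, 95% interval 0.08 to 0.58, limma adjusted p = 0.033). The call was lost without *Ctrl* line 1 (0.34, limma adjusted p = 0.052), without *Ctrl* line 2 (0.29, limma adjusted p = 0.11), without *Tet iTKO* line 1 (0.33, limma adjusted p = 0.074) and without *Tet iTKO* line 2 (0.20, limma adjusted p = 0.28). With the GC content and length correction it was 0.07 (limma adjusted p = 0.72).

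*Acd* shares 1208 exon bases with *Carmil2*, a gene for an actin regulator on the opposite strand. *Carmil2* had 19, 27 and 35 normalized counts across *Ctrl* and 64, 88 and 99 in *Tet iTKO* lines, and its log2 fold change was 1.61 (limma adjusted p = 2.4e-05). The difference in means was 56.7 normalized counts for *Carmil2* and 60 for *Acd*, but the 2 genes did not move together over all lines. Among *Tet iTKO* lines, line 3 had the highest count of *Carmil2*, 99, and the lowest of *Acd*, 234. Among *Ctrl* lines, line 3 had the highest count of both. With *Carmil2* subtracted in each library, the alternative chosen with the data in view, *Acd* had a fitted log2 change of -0.02 (limma adjusted p = 0.95). The whole count of *Carmil2* was subtracted, including reads outside the shared bases, so more than the shared reads may have been removed. This value therefore does not show how *Acd* alone stood. The library kit, Smart-Seq2, does not mark the strand of the RNA, and reads were counted with a strand setting, so reads of the 2 genes in the shared bases cannot be told apart.

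**Figure D3:**
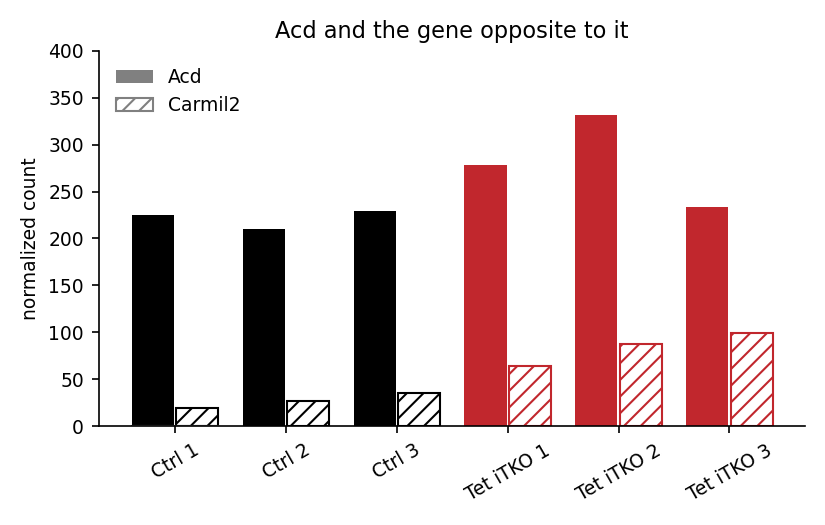
Normalized counts of *Acd* and of *Carmil2*, which overlaps it on the opposite strand, with a filled bar for *Acd* and a hatched bar for *Carmil2* in each of the 3 *Ctrl* lines (black) and 3 *Tet iTKO* lines (red). Both genes are higher in *Tet iTKO* lines, on average by 60 counts for *Acd* and 56.7 for *Carmil2*. Among *Tet iTKO* lines, line 3 has the highest bar of *Carmil2* and the lowest of *Acd*, and among *Ctrl* lines, line 3 has the highest of both.

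Levels of the 10 genes were compared with each other as normalized counts per kb of exon. In *Ctrl* mESC *Dkc1* was highest with 377 ± 13.7 (SD, n = 3), followed by *Tinf2* with 75.7 ± 6.78 (SD, n = 3), *Rtel1* with 61.9 ± 4.31 (SD, n = 3), *Acd* with 61.1 ± 2.76 (SD, n = 3) and *Terf1* with 56.4 ± 6.65 (SD, n = 3). Lower levels were found for *Terf2ip* with 18.1 ± 6.17 (SD, n = 3), *Pot1a* with 17.7 ± 2.28 (SD, n = 3), *Terf2* with 12.8 ± 3.20 (SD, n = 3), *Tert* with 3.84 ± 1.22 (SD, n = 3) and *Pot1b* with 3.04 ± 1.48 (SD, n = 3). Neighbours in this order whose ranges over lines overlapped were *Rtel1* and *Acd*, *Acd* and *Terf1*, *Terf2ip* and *Pot1a*, and *Tert* and *Pot1b*. Within telomerase, the per-kb level of *Dkc1* was 98.3 times that of *Tert*, and within shelterin that of *Tinf2* was 24.9 times that of *Pot1b* and that of *Pot1a* 5.84 times that of *Pot1b*.

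In *Tet iTKO* mESC the order of these per-kb levels, on values as deposited, changed only in places 2 to 4. There *Rtel1* with 86.8 ± 3.97 (SD, n = 3) and *Acd* with 77.6 ± 13.5 (SD, n = 3) stood above *Tinf2* with 69.2 ± 2.84 (SD, n = 3). The range of *Acd* over *Tet iTKO* lines, 64.6 to 91.6, enclosed those of *Rtel1*, 82.2 to 89.2, and *Tinf2*, 66.2 to 71.9, so that the place of *Acd* among them is not set beyond its spread. With the whole counts of the opposite-strand genes subtracted, the per-kb level of *Acd* was 53.6 ± 3.17 (SD, n = 3) for *Ctrl* but 54.5 ± 15.5 (SD, n = 3) for *Tet iTKO* mESC. That of *Tinf2* was 51.3 ± 4.02 (SD, n = 3) and 51.4 ± 3.98 (SD, n = 3). *Acd* was above *Tinf2* in both groups, by less than the SD of either. So subtracted, both means lay below that of *Terf1* in *Ctrl* (56.4) and above it in *Tet iTKO* mESC (46.6). The exon lengths are unions over the transcripts in the GENCODE M21 annotation of GRCm38, not those of the transcripts used in these cells.

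**Figure D4:**
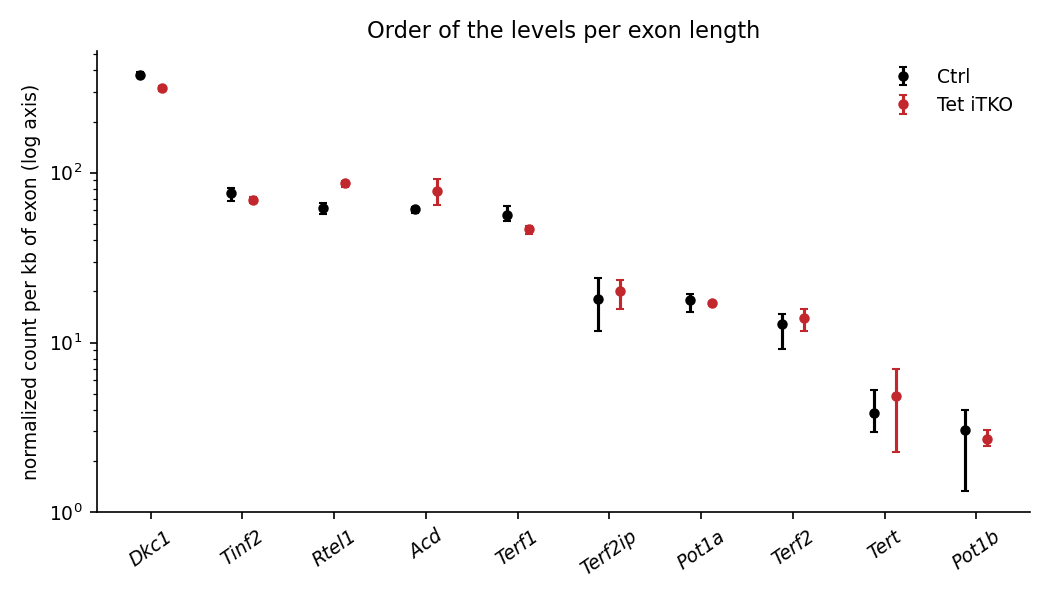
Level of each of the 10 genes as normalized counts per kb of exon (log axis), in *Ctrl* and *Tet iTKO* mESC, with the mean as a point and a bar from the lowest to the highest of the 3 lines. *Dkc1* stands at 377 in *Ctrl*, and *Tert* and *Pot1b* are lowest, at 3.84 and 3.04.

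The genes whose pattern over the 6 lines was nearest to that of *Tert*, by Euclidean distance of centred log2 values among 7789 genes, were *Ggcx* (0.59), *Pcsk6* (0.63) and *Trmu* (0.65), where the median distance was 1.41. For *Tert* the SD within each group exceeded the difference between the group means, so the likeness describes mainly how lines of 1 group differed.

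Other genes of telomere biology were grouped in lists by role, and 86 of 91 listed genes found in the files were tested. Together 15 rose and 12 fell, which is 31.4% against 34.8% of all tested genes. Of the 15, *Zscan4c*, *Zscan4d*, *Zscan4f*, *Sun2* and *Wt1* had *Ctrl* means under 10 and passed the filter on low values only through the *Tet iTKO* lines. The lists below stand beside 16.4% higher and 18.4% lower among all tested genes, and no difference between a list and other genes was tested.

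Of the 16 tested genes for assembly and trafficking of telomerase, 1 rose (against 16.4% of all tested genes) and 7 fell (against 18.4%), with a median log2 fold change of -0.10. *Nhp2* and *Nop10* encode partners of dyskerin in the H/ACA complex. *Nhp2* had 2684, 2555 and 2640 normalized counts across *Ctrl* and 1536, 1692 and 1683 in *Tet iTKO* lines, a log2 change of -0.68 (limma adjusted p = 2.2e-12). *Nop10* had 1027, 909 and 930 against 693, 678 and 605 normalized counts, a log2 change of -0.54 (limma adjusted p = 4.8e-07). Both kept their calls in every alternative, and neither had overlapping groups. *Gar1*, the other dyskerin partner, moved the opposite way, with 603, 466 and 520 against 637, 609 and 640 normalized counts and a log2 change of 0.25 (limma adjusted p = 0.02), a call lost without *Ctrl* line 2 (0.17, limma adjusted p = 0.18), *Tet iTKO* line 1 (limma adjusted p = 0.062) or *Tet iTKO* line 3 (limma adjusted p = 0.07).

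The other 5 that fell were *Shq1* (-0.45), a dyskerin assembly factor, *Pinx1* (-0.43), a telomerase inhibitor, *Wrap53* (-0.38), which encodes the Cajal body protein TCAB1, *Ruvbl2* (-0.33) and *Ruvbl1* (-0.25), the AAA ATPases that assemble telomerase. All but *Ruvbl1* lie outside the rule for naming genes and are given after their values were seen. The call of *Pinx1* (limma adjusted p = 0.033) was lost in 5 of the 6 fits without 1 line, all but that without *Tet iTKO* line 2 (highest limma adjusted p = 0.11), and that of *Ruvbl1* (limma adjusted p = 0.0069) without *Ctrl* line 3 or *Tet iTKO* line 2 (limma adjusted p = 0.055 and 0.054) and with quantile normalization (limma adjusted p = 0.11). With the GC content and length correction 1 rose and 6 fell, against 12.2% and 21.5% of all tested genes, and the call of *Pinx1* was lost (limma adjusted p = 0.057). *Terc*, the RNA template, was not matched.

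The CST complex and DNA polymerase alpha-primase fill in the telomeric C strand. Of the 7 genes tested, *Pola2*, the polymerase accessory subunit, rose by 0.65 on the log2 scale (607 ± 31.6 to 952 ± 79.5 normalized counts, SD, n = 3, limma adjusted p = 1.5e-08) and *Prim1*, the catalytic primase, fell by 0.54 (716 ± 6.03 to 493 ± 36.8 normalized counts, SD, n = 3, limma adjusted p = 1.5e-06). *Ctc1*, the large CST subunit, rose by 0.28 with overlapping groups (limma adjusted p = 0.016), a call lost without *Ctrl* line 2 or 3 or *Tet iTKO* line 2 or 3 (highest limma adjusted p = 0.11). The other 4 did not pass.

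Of 23 genes for telomere replication and end processing, to which *Rtel1* is closest in function, 4 rose and none fell by limma at an adjusted p under 0.05, where 16.4% of all tested genes rose and 18.4% fell. *Slx4*, a scaffold for nucleases that resolve telomeric loops, had 76.3 ± 11.8 (SD, n = 3) and 137 ± 19.3 (SD, n = 3) normalized counts across *Ctrl* and *Tet iTKO* mESC, a log2 change of 0.84 (limma adjusted p = 0.00047). The helicase gene *Blm* (0.35, limma adjusted p = 0.014), the nuclease-helicase gene *Dna2* (0.29, limma adjusted p = 0.033) and the tankyrase gene *Tnks2* (0.26, limma adjusted p = 0.0036), whose product acts on TRF1, rose less. Without *Ctrl* line 2 or *Tet iTKO* line 3 the adjusted p of *Blm* was 0.078 and 0.055 (limma), and that of *Dna2* was between 0.084 and 0.21 (limma) without *Ctrl* line 3, *Tet iTKO* line 1 or *Tet iTKO* line 3. With the GC content and length correction the log2 fold change of *Dna2* was 0.11 (limma adjusted p = 0.48), and 3 genes of the list rose and 1 fell, against 12.2% and 21.5% of all tested genes.

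**Figure D5:**
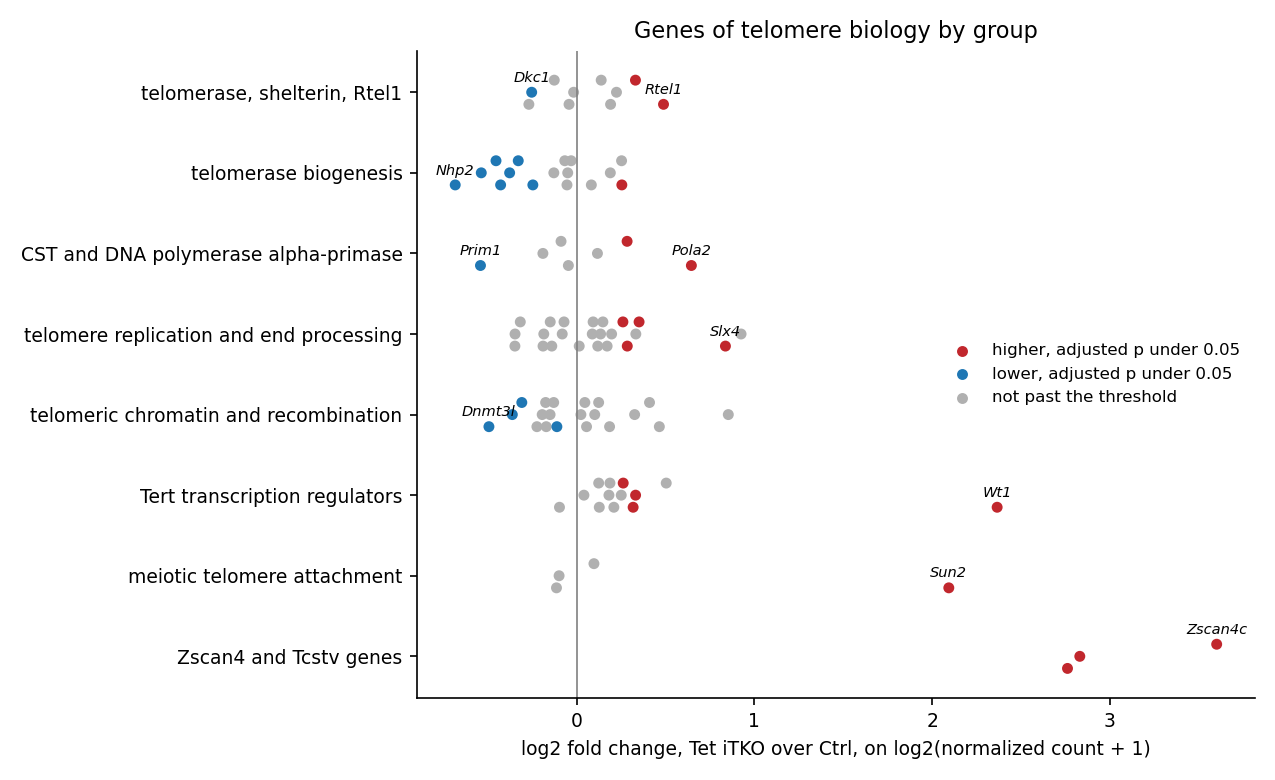
Log2 fold change, *Tet iTKO* minus *Ctrl*, of each tested gene in the 10-gene set and in the wider telomere lists, 1 point per gene, red where higher and blue where lower at a limma adjusted p under 0.05 and grey otherwise. *Zscan4c*, at 3.60, is the highest point, and 7 of the 16 telomerase assembly genes are blue points below 0.

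Of 20 genes for telomeric chromatin and recombination, 4 fell and none rose by limma at an adjusted p under 0.05, where 18.4% of all tested genes fell and 16.4% rose. *Dnmt3l*, a cofactor of de novo DNA methyltransferases, fell by 0.49 (849 ± 65.3 to 603 ± 36.6 normalized counts, SD, n = 3, limma adjusted p = 3.8e-06), and *Pold3*, a DNA polymerase delta subunit, fell by 0.31 (limma adjusted p = 0.0017). *H3f3a* and *H3f3b*, which both encode histone H3.3, had log2 fold changes of -0.36 (limma adjusted p = 7.4e-05) and -0.11 (limma adjusted p = 0.041), and that of *H3f3b* was 0.09 with quantile normalization (limma adjusted p = 0.095) and lost its call in 4 of the 6 fits without 1 line, those without *Ctrl* 2, *Ctrl* 3, *Tet iTKO* 1 and *Tet iTKO* 2. With the GC content and length correction 3 genes of this list rose and 3 fell, and *H3f3b* did not pass (limma adjusted p = 0.36).

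Zscan4 proteins mark a transient state of mESC and lengthen telomeres by recombination. Of the 8 genes listed for them and for Tcstv, 3 were matched, and all 3 rose. *Zscan4c* had 1, 3 and 2 normalized counts across *Ctrl* and 44, 33 and 27 in *Tet iTKO* lines, with a log2 change of 3.60 (limma adjusted p = 1.1e-05). *Zscan4d* had 6, 16 and 5 against 56, 54 and 70 normalized counts (2.76, limma adjusted p = 1.9e-06), and *Zscan4f* had 9, 1 and 1 against 23, 24 and 23 (2.83, limma adjusted p = 0.0011). The groups did not overlap for any of them. These genes are near-identical copies, so that which copy a read belongs to is uncertain, and they passed the filter on low values through the *Tet iTKO* lines.

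Of the 8 genes that tether telomeres to the nuclear envelope in meiosis, 4 were tested and *Sun2*, an inner nuclear membrane protein gene, rose. It had 5, 3 and 5 normalized counts across *Ctrl* and 19, 19 and 27 in *Tet iTKO* lines, with a log2 change of 2.09 (limma adjusted p = 0.0043), and it passed the filter on low values through the *Tet iTKO* lines.

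Of 13 tested regulators of *Tert* transcription, 4 rose and none fell by limma at an adjusted p under 0.05, beside 16.4% and 18.4% of all tested genes. *Wt1*, a zinc finger factor gene, had 2, 5 and 2 normalized counts across *Ctrl* and 21, 15 and 20 in *Tet iTKO* lines (2.37, limma adjusted p = 0.0044) and likewise passed the filter through the *Tet iTKO* lines. *Klf4* (0.32, limma adjusted p = 0.0032) and *Ctnnb1* (0.26, limma adjusted p = 0.0024), the gene for beta-catenin, both act on *Tert* in mESC. *E2f1*, a cell cycle factor gene, had a log2 change of 0.33 (limma adjusted p = 0.0039), which was -0.10 with the GC content and length correction (limma adjusted p = 0.42), and that of *Klf4* was 0.09 (limma adjusted p = 0.47) with the same correction. *Myc* and *Mycn* had log2 fold changes of 0.12 (limma adjusted p = 0.41) and 0.13 (limma adjusted p = 0.14). The value of *Mycn* passed the test in opposite directions under other scalings, at 0.23 with quantile normalization (limma adjusted p = 0.0087), 0.21 with equal totals per library (limma adjusted p = 0.013) and -0.18 with the GC content and length correction (limma adjusted p = 0.04).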

How the data were processed

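RNA of 3 *Ctrl* and 3 *Tet iTKO* mESC lines was made into Smart-Seq2 libraries. Per the study's methods and the submitters' processing notes, the authors aligned paired reads of 50 bases with STAR to mm9, kept unique alignments, counted genes with HTSeq 0.7.1 using a strand setting and a minimum quality of 10, and divided by DESeq2 1.26.0 size factors in R 3.5.2. The deposited values carry the unit score: normalized counts that were then rounded to integers, so no model for read counts was applied. GENCODE M21 paired 20775 of the 22380 identifiers with a symbol. The only coordinates printed are those of the promoter windows, which are in GRCm38.p6 and differ from mm9.

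The 2 groups were tested by limma 3.58.1 (eBayes with a trend, R 4.3.3) on log2(normalized count + 1), keeping genes whose mean was 10 or more. Single ratios had exact permutation tests. Python 3.11.15, pandas 2.3.3, NumPy 2.4.6, SciPy 1.17.1 and matplotlib 3.10.9 were used for tables and plots. Reads per library were estimated from whole numbers that rounding skips, a method that recovered 20 of 20 simulated size factors within 1%. On data simulated with the same spread setting for every gene and no GC trend, 89 of 99 genes changed by 1 on the log2 scale were recovered. There 8 unchanged genes were called among 10508 tested. No smaller change was simulated, so recovery of differences such as the 0.02 to 0.49 of the 10 genes was not tested. Reads carried no molecular identifiers, so depth covers counting error only. The GC content and length correction subtracted a loess fit (span 0.3) in each library. Other alternatives were pseudocounts of 0.5 and 4, other filters and scalings, eBayes without a trend, a block for the replicate number, leaving out each line, and subtraction of a gene sharing at least 100 exon bases on the opposite strand, which was chosen after seeing the data. That subtraction took the whole count of the other gene, not only reads in the shared bases.

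The members and lists were chosen with earlier results of these data known. Named are the 10 genes, the genes overlapping them, the 3 nearest to *Tert* with a mean of at least 50, sex marker genes, and of each list every gene past the threshold, or the 2 highest and 2 lowest where more than 5 passed. *Myc*, *Mycn*, *Pou5f1*, *Nanog*, *Sox7*, *Thy1*, *Acta2*, the low markers of other cell types and the other telomerase assembly genes that fell are named outside this rule, after their values were seen.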

Additional observations from a re-analysis of the deposited data

How the results depend on the processing

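The count of the 10 genes that were higher, 2 as reported, was 1 without the filter on low values, with eBayes without a trend, with the GC content and length correction with or without a replicate block, and with the opposite-strand gene subtracted, and between 1 and 2 when each line was left out. The gene kept in each case was *Rtel1*. The count that were lower, 1 as reported, was 0 with quantile normalization, eBayes without a trend, and the GC content and length correction with or without the block. Over all tested genes, eBayes without a trend called 1075 higher and 1217 lower, where 1731 and 1934 were called as reported. Of all calls, 47.2% were higher as reported, 61.9% with equal totals per library and 36.3% with the GC content and length correction. The log2 ratio of *Pot1a* to *Pot1b*, with a group difference of -0.03 as reported, turned to 0.42 with quantile normalization and 0.043 with the GC content and length correction, and lay between -0.39 and 0.51 in fits without each line in turn, turning positive without *Ctrl* line 2 (0.51) and without *Tet iTKO* line 3 (0.043). With the opposite-strand gene subtracted, *Acd* turned to -0.017, with quantile normalization *H3f3b* turned to 0.086, and with the GC content and length correction, with or without the block, *Mycn* turned to -0.18 and *E2f1* to -0.10. The causes of these changes were not tested.

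No pairing of lines by replicate number was visible, as the deviations of lines with the same number had correlations of 0.001, -0.005 and -0.003. The paper describes independent experiments, and whether lines with the same number shared one is not stated, so pairing was not excluded. With the replicate block, 2 of the 10 genes were higher and 1 was lower, and 1762 and 1980 of all tested genes. Of 1848 values of the 104 listed genes other than these 10 under the alternatives, 1731 kept their side of the threshold, 70 lost the call, 42 gained it and 5 changed direction while passing in at least 1 of the fits compared. A further 66 of the 1731, which passed in neither fit, changed sign.

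With 3 lines a group, limma *p*-values rest on the spread between these lines together with a variance shared over genes of like level. With eBayes without a trend, which does not tie the shared variance to level, *Dkc1* and *Acd* lost their calls (limma adjusted p = 0.07 and 0.15). *Tert* and *Pot1b*, both at few reads, had intervals that reach 1 on the log2 scale. The parts of depth and of spread between lines in this width were not tested.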
